A study of Drosophila melanogaster with 4 samples.

Results

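The regions described here are the wide peaks of Abd-B-GFP binding, those of 1000 bp or more on chromosome arms 2L, 3L, 3R, X and 4 of Drosophila melanogaster. They were chosen by their width, the end minus the start plus 1, in the 1 peak list of the series. The rule found 307 wide peaks among 3234 peaks on these arms (9.49%, exact Clopper-Pearson 95% interval 8.50 to 10.6%), out of 4389 peaks in all. The other 2927 peaks of the same arms are called narrower below. Arm 2R was outside the rule and was not analysed here.

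The list comes from chromatin immunoprecipitation followed by sequencing (ChIP-seq) of third-instar (L3) larvae, with 2 libraries of GFP ChIP DNA and 2 libraries of input DNA. Per the labels, all 4 libraries came from the strain Abd-B-GFP with the genotype w; PBac{y[+]-attP-3B}VK00037 and a genomic Abd-B transgene in which GFP takes the place of the stop codon, and the sex is given as Unknown. GFP was precipitated with ab290, a polyclonal rabbit antibody, from wandering larvae collected whole, so that a peak is a mean over all larval tissues. The protocol text names another stock, y; bw cn sp, and no value used here shows that the larvae carried the fusion protein.

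Abd-B is the most posterior of the Hox proteins, a homeodomain factor encoded in the bithorax complex, which gives the posterior abdominal segments and the genitalia their identity. Hox proteins bind short AT-rich sequences, and fly enhancers often hold several binding sites for one factor or for several factors. In ChIP-seq, a peak caller such as MACS reports the stretch over which fragments exceed a background, so the width of a peak reflects the fragment length, the depth and the threshold as well as the extent of the bound DNA. The list has 1 score per peak, which the authors' file does not define, and keeps no library apart. There is thus no replicate error for any value, the depth per library is unknown, and the intervals below cover only the counting error over peaks. Neighbouring peaks are not independent, which makes these intervals too narrow. No difference between wide and narrower peaks was tested, because the width that defines them was itself measured in these libraries.

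The wide peaks were mostly little above the limit, with a long upper tail. The median of their widths was 1275 bp, and the middle part of the distribution, between the quartiles, ran from 1098.5 to 1533 bp, up to a maximum of 3726 bp. For the narrower peaks the median was 387 bp and the quartiles were 278 and 569.5 bp. Between 1000 and 1249 bp there were 149 wide peaks, between 1250 and 1499 bp 77, between 1500 and 1999 bp 60, and from 2000 bp upwards 21. Although they were 9.49% of the peaks, wide peaks made up 424 kb of the 1729.7 kb covered by peaks on these arms (24.5%). The limit cut through a continuous distribution. The 3 members just inside it were 1003, 1003 and 1006 bp wide with scores of 44.12, 25.29 and 71.84. The 3 peaks just outside it were 999, 997 and 997 bp wide with scores of 41.77, 66.70 and 81.03, so the peaks on both sides of the limit had scores in the same range.

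The 10 widest peaks lay on 3 arms, 5 on X, 4 on 3R and 1 on 3L. Of all wide peaks, X held 31.3%, 3R 31.9% and 3L 17.9%. On X, the widest of all on these arms, at 1504034 to 1507759, was 3726 bp wide with a score of 61.79 and had 19 other peaks within 25 kb of its midpoint. It was followed on X by a peak of 3184 bp at 7829367 to 7832550 with a score of 98.96 and by one of 3077 bp at 3635944 to 3639020 with a score of 78.40. The 3L peak, 2802 bp at 22815547 to 22818348 with a score of 78.76, was the only one of the 10 that stood more than 5 kb from its nearest neighbour, at 9096 bp. Next came 3R peaks of 2766, 2765, 2743 and 2712 bp. In that order, they lay at 12758120 to 12760885 with a score of 210.10, at 12060750 to 12063514 with 36.08, at 12883183 to 12885925 with 51.85, and at 16608285 to 16610996 with 145.63. The last 2 of the 10 were X peaks of 2597 bp at 11029545 to 11032141, with a score of 110.59, and of 2565 bp at 7954216 to 7956780, with a score of 135.22. Scores among the 10 widest thus ran from 36.08 to 210.10. Another peak lay within 1 kb of 8 of the 10, of 37.8% of all wide peaks and of 30.5% of all peaks. Genes at these positions were not analysed here.

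Wide peaks carried higher scores than narrower ones. This is a description, since width and score come from the same peak calls. Their median score was 55.35 (exact 95% interval of the median 50.88 to 59.77), the quartiles were 30.5 and 88.8, and single scores ran from 11.88 to 250.40. For narrower peaks the median was 14.16 (13.80 to 14.55), the quartiles were 10.6 and 22.4, and single scores ran from 6.18 to 254.32. Scores above 100 were found in 63 of 307 wide peaks (20.5%, 16.1 to 25.5%) and in 41 of 2927 narrower peaks (1.40%, 1.01 to 1.90%). When the 3234 peaks were divided by score into 5 classes of nearly equal size, wide peaks made up 0% of class 1, the lowest, then 0.156% of class 2, 2.47% of class 3, 11.3% of class 4, and 33.6% of class 5.

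**Figure D1:**
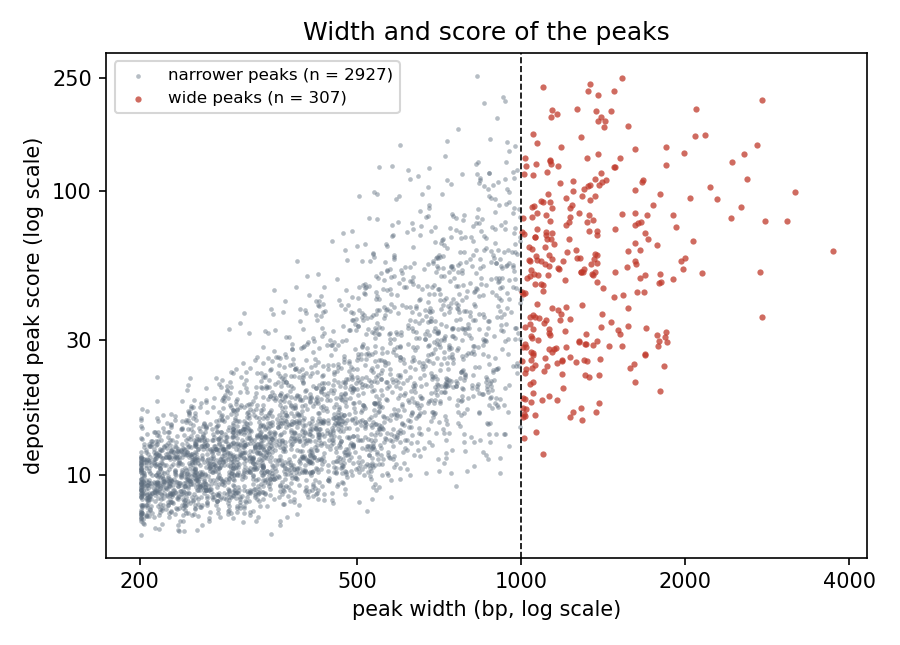
Score, as deposited by the authors, against width in bp for each of the 3234 peaks, both on log scales, with the 307 wide peaks in red, the 2927 narrower peaks in grey and the limit of 1000 bp as a dashed line. Narrower peaks rise in score with width, and scores of wide peaks spread widely in every class of width, from 11.88 to 233.41 between 1000 and 1249 bp and from 36.08 to 210.10 at 2000 bp or more.

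Once peaks were wide, width told less about score. Across peaks, the Spearman correlation of width with score was 0.712 among the 2927 narrower peaks and 0.279 among the 307 wide ones, a narrower range of widths on a log scale. Both are descriptions over peaks that share libraries and depth. The median score was 47.25 from 1000 to 1249 bp, 58.36 from 1250 to 1499 bp, 54.7 from 1500 to 1999 bp and 94.67 from 2000 bp upwards. The narrower class next to the limit, 751 to 999 bp, had a median of 37.54 but held the highest score on these arms, 254.32 on a 3R peak of 832 bp at 8889555 to 8890386.

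The 5 wide peaks with the highest scores were 1098 to 1533 bp wide. X, which held 31.3% of all wide peaks, had 3 of the first 5. These scored 250.40 over 1533 bp at 19530929 to 19532461, 237.60 over 1338 bp at 17720329 to 17721666, and 225.67 over 1478 bp at 2051829 to 2053306. A 2L peak of 1098 bp at 6323731 to 6324828 scored 233.41. The 3L peak at 16044965 to 16046293 had 224.48 at 1329 bp and 0 other peaks within 25 kb. None of these 5 was among the 10 widest, which says little, since those are only 10 of 307 wide peaks. By median, the class of 2000 bp or more scored highest, at 94.67.

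At the other end, 23 of 307 wide peaks (7.49%, 4.81 to 11.0%) had a score below 20, a level under which 2033 of 2927 narrower peaks (69.5%, 67.8 to 71.1%) fell. The lowest was the X peak at 17632243 to 17633340, which had a score of 11.88 over 1098 bp, the same width as the 2L peak with 233.41. The next were on X at 2681175 to 2682187 with 13.48, and on 3L at 1100380 to 1101444 with 14.15, at 7801926 to 7803218 with 15.65 and at 10768930 to 10769936 with 16.00. These 5 weak wide peaks stood 455 to 1543 bp from their nearest peak. That range lies between the lower quartile, 438.5 bp, and the median, 2467 bp, of the gaps of all wide peaks. With only 5 picked peaks, no trait of weak wide peaks is read from it. On 2L, 0 of 57 wide peaks scored below 20 (exact interval up to 6.27%), whereas 9 of 55 did so on 3L (16.4%, 7.77 to 28.8%).

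X had the largest share of wide peaks. On X, 96 of 672 peaks were wide (14.3%, 11.7 to 17.2%). The share was 9.35% on 3R (98 of 1048, 7.66 to 11.3%), 8.89% on 2L (57 of 641, 6.80 to 11.4%) and 6.60% on 3L (55 of 833, 5.01 to 8.51%). The small chromosome 4 had 1 wide peak among 40 (2.50%, 0.0633 to 13.2%), at 527672 to 529368, with a width of 1697 bp and a score of 32.93. The interval of X did not overlap those of 3R, 2L or 3L, and those of 2L, 3L and 3R overlapped each other. Other limits ended part of this. With wide peaks starting at 800 bp, the interval of X (19.6 to 26.1%) overlapped that of 3R (15.2 to 19.9%). With a limit of 1500 bp, and with peaks scored no lower than the median, it overlapped those of 3R and 2L. X thus held 31.3% of the wide peaks and 19.7% of the narrower ones, and 3L held 17.9% and 26.6%.

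**Figure D2:**
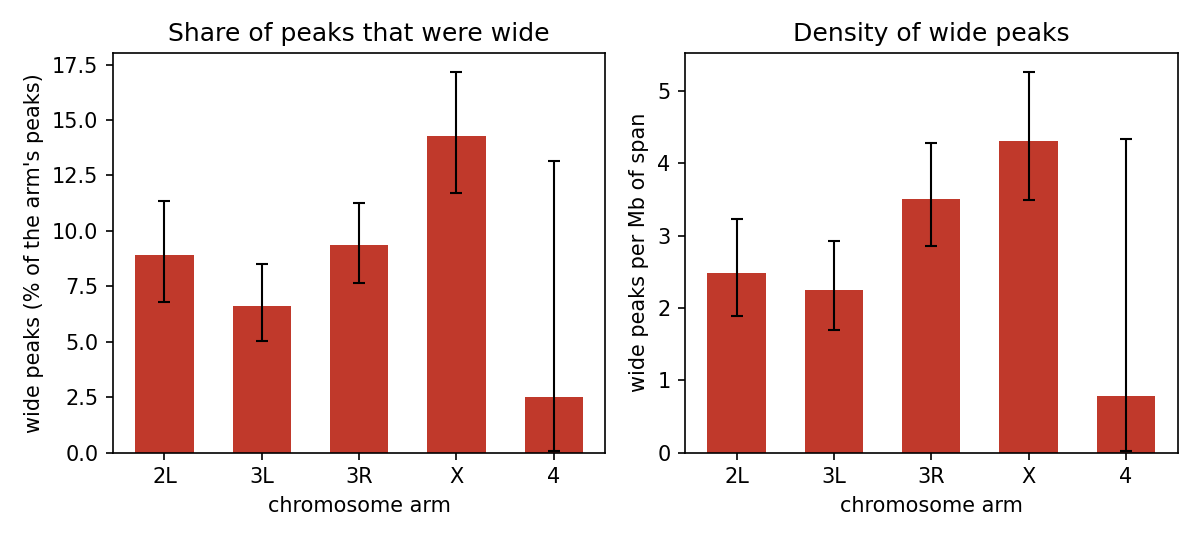
Wide peaks per arm as a percentage of the arm's peaks (left) and per Mb of the span from its first to its last peak (right). Error bars are exact 95% intervals (Clopper-Pearson on the left, Poisson on the right), and X stands highest in both panels, at 14.3% and 4.31 per Mb.

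Per Mb of the span between an arm's first and last peak, X had 4.31 wide peaks (exact Poisson 95% interval 3.49 to 5.26), 3R had 3.51 (2.85 to 4.28), 2L had 2.49 (1.89 to 3.23), 3L had 2.25 (1.70 to 2.93) and chromosome 4 had 0.779 (0.0197 to 4.34). By density, X and 3R were not apart beyond counting error. Wide peaks accounted for 33.8% of the length covered by peaks on X, against 23.8% on 3R, 23.4% on 2L, 18.0% on 3L and 7.70% on chromosome 4. Among the wide peaks themselves, 11 of 96 on X reached 2000 bp (11.5%, 5.86 to 19.6%), as did 5 of 98 on 3R, 3 of 57 on 2L and 2 of 55 on 3L. The median score of wide peaks was 67.1 on X, 53.4 on 2L, 51.3 on 3R and 45.7 on 3L.

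Among the strongest peaks the share on X was also the highest. In class 5 by score, from 33.01 upwards, 74 of 174 X peaks were wide (42.5%, 35.1 to 50.2%). In the same class, 67 of 190 were wide on 3R (35.3%, 28.5 to 42.5%), 42 of 138 on 2L (30.4%, 22.9 to 38.8%) and 34 of 132 on 3L (25.8%, 18.5 to 34.1%). Chromosome 4 had 12 peaks of that strength, up to 214.33, and 0 of them were wide (exact interval up to 26.5%). The intervals of X and 3R overlapped, as did those of X and 2L. In class 4, with scores from 18.41 to 32.99, the share was 11.4% on X, within the 9.64 to 12.8% of 2L, 3L and 3R. X peaks as a group also had higher scores, with a median of 17.0 against 14.19 to 15.39 on 2L, 3L and 3R, and the part of score in the share was not tested beyond these classes.

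Along X, wide peaks were unevenly spread. Bins of 1 Mb held 4.36 ± 3.62 wide peaks on X (SD over 22 bins), 3.37 ± 1.62 on 3R (27 bins), 2.41 ± 1.68 on 2L (22 bins) and 2.29 ± 1.97 on 3L (24 bins). The bins of X ran from 0 to 14. The bins named here were picked after their counts were seen. The bin of X from 1000001 to 2000000 held 14 wide peaks among 90, or 15.6%, close to the share of all X. In the bin from 19000001 to 20000000, 11 of 39 peaks were wide (28.2%), and in that from 2000001 to 3000000, 10 of 35 (28.6%). Without the first of these bins the X share was 14.1% (11.4 to 17.2%), and without all 3 it was 12.0% (9.31 to 15.2%), a value that leaving out the richest bins lowers by construction. In both cases the interval overlapped that of 2L, in the first only just, and without all 3 bins it also overlapped that of 3R. The share on 2L, 3L and 3R together was 8.33% (7.28 to 9.47%). The richest bin elsewhere was on 3L from 22000001 to 23000000, with 8 wide peaks among 32.

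The share of peaks with a close neighbour was higher among wide peaks. Another peak lay within 1 kb, edge to edge, of 116 of 307 wide peaks (37.8%, 32.3 to 43.5%) and of 871 of 2927 narrower ones (29.8%, 28.1 to 31.5%), and these intervals did not overlap. The difference was 8.03 percentage points (2.33 to 13.9, combined from both exact intervals). It was 19.3 (7.93 to 30.8) with wide peaks starting at 1500 bp and 6.20 (1.14 to 11.7) with peaks scored no lower than the median. Without chromosome 4 it was 7.89 (2.17 to 13.8). With wide peaks starting at 800 bp it was 4.05 (-0.275 to 8.51), which includes 0. The median gap to the nearest peak was 2467 bp for wide peaks (interval of the median 1543 to 3819 bp, quartiles 438.5 and 11819.5 bp) and 3858 bp for narrower ones (3478 to 4176 bp, quartiles 691 and 13589 bp), and here the intervals overlapped. Within 5 kb the shares were 59.6% (53.9 to 65.1%) and 55.1% (53.3 to 56.9%). No neighbour within 20 kb was found for 14.3% of wide (10.6 to 18.8%) and 16.9% of narrower peaks (15.6 to 18.3%), and these intervals overlapped, as they did at 5 kb.

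The share with a neighbour within 1 kb was higher for wide peaks on 3 of the 4 large arms. It was 42.7% against 30.2% on X, 39.8% against 30.9% on 3R, and 33.3% against 24.7% on 2L, with overlapping intervals on each. On 3L it was 30.9% against 32.8%, and the 1 wide peak of chromosome 4 stood 19200 bp from its neighbour. The median gap of wide peaks was below that of narrower peaks on all 4 large arms, with 1688 against 3517.5 bp on X, 2977 against 4976 bp on 2L, 2629 against 3322 bp on 3L, and 3272 against 3619.5 bp on 3R. The interval of the median for wide peaks overlapped that for narrower peaks on each of these arms.

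A wide peak reaches farther towards its neighbours than a narrow one with the same midpoint, so edges and midpoints were both measured. Between midpoints, the median distance to the nearest peak was 3445.5 bp for wide peaks (2525 to 4812.5 bp) and 4295.5 bp for narrower ones (3933 to 4735 bp). Midpoints less than 1 kb apart were found for 20 of 307 wide peaks (6.51%) and for 553 of 2927 narrower peaks (18.9%). Width itself limits this count, since the midpoint of a wide peak lies far from its own edges. The smallest midpoint distance was 661 bp for wide and 280.5 bp for narrower peaks. The lower share of wide peaks by midpoints is thus partly set by the rule, and no conclusion is drawn from it. Width also enters the gap between edges, so the higher share of wide peaks by edges is not free of the rule either.

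**Figure D3:**
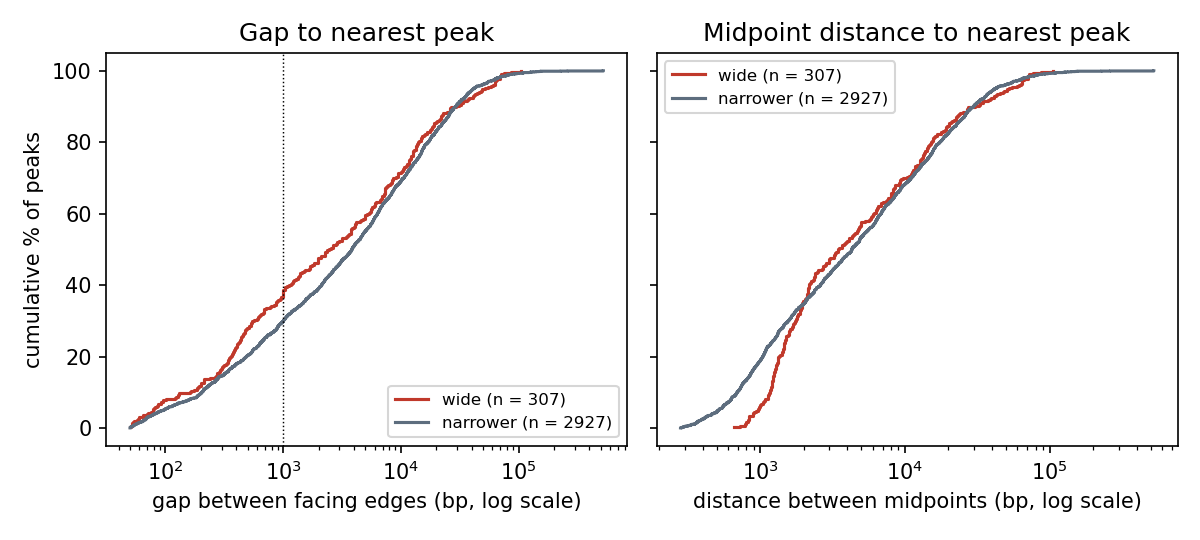
Cumulative percentage of peaks against the distance to the nearest other peak in bp (log scale), as the gap between facing edges (left, 1 kb dotted) and as the distance between midpoints (right), for 307 wide peaks in red and 2927 narrower peaks in grey. By edges the wide peaks lie above the narrower ones at 1 kb, at 37.8 against 29.8%, and the curves meet farther out.

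Over a wider neighbourhood, with the limit of 1000 bp and all scores together, wide and narrower peaks had like numbers of neighbours. The median number of other peaks with a midpoint within 25 kb was 3 in both sets, with quartiles at 1 and 5, and the mean was 3.55 for wide and 3.39 for narrower peaks. At least 10 such neighbours were found for 14 of 307 wide peaks (4.56%, 2.52 to 7.53%) and 136 of 2927 narrower ones (4.65%, 3.91 to 5.47%). There were 0 for 36 wide peaks (11.7%, 8.35 to 15.9%) and 390 narrower ones (13.3%, 12.1 to 14.6%).

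Within a score class, wide peaks again had the smaller median gap, although score was not matched inside a class. Class 5 spans scores from 33.01 to 254.32 and held all 63 wide and all 41 narrower peaks with scores above 100. In class 5 by score, the median gap was 2977 bp for 217 wide peaks (1744 to 4803 bp) and 5665 bp for 429 narrower ones (4760 to 6995 bp), and a neighbour within 1 kb was found for 35.5% (29.1 to 42.2%) and 26.3% (22.2 to 30.8%), with intervals that overlapped slightly in both measures. The mean number of peaks within 25 kb was 3.55 and 2.89 there. Narrower peaks had fewer neighbours as their score rose, from means of 3.57 and 3.69 in classes 1 and 2 to 2.89 in class 5, while for wide peaks the means were 3.38, 3.62 and 3.55 in classes 3, 4 and 5. In class 4, the median gap was 2467 bp for wide peaks (830 to 6072 bp) and 3921 bp for narrower ones (3128 to 4734 bp), about as far apart as over all classes. There, 42.5% of 73 wide peaks (31.0 to 54.6%) and 28.4% of 573 narrower ones (24.8 to 32.3%) had a neighbour within 1 kb, again with a slight overlap.

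Measured between edges, a distance that width itself enters, a close neighbour was most frequent beside the widest peaks. From 201 to 999 bp the share with a neighbour within 1 kb stayed between 28.8 and 31.6% over 4 classes of width. It was 34.2% (26.7 to 42.4%) from 1000 to 1249 bp, 32.5% (22.2 to 44.1%) from 1250 to 1499 bp, 43.3% (30.6 to 56.8%) from 1500 to 1999 bp, and 66.7% (43.0 to 85.4%) from 2000 bp upwards, where 14 of 21 peaks had one. The mean number of other peaks within 25 kb was 3.16, 3.43, 3.92 and 5.71 in these 4 classes, and 3.28 to 3.52 in the classes below 1000 bp. Without the 21 peaks of 2000 bp or more, 102 of 286 wide peaks had a neighbour within 1 kb (35.7%, 30.1 to 41.5%), an interval that overlapped the 28.1 to 31.5% of narrower peaks, with a mean of 3.39 within 25 kb. Of the 21, 11 lay on X, which held 31.3% of all wide peaks.

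**Figure D4:**
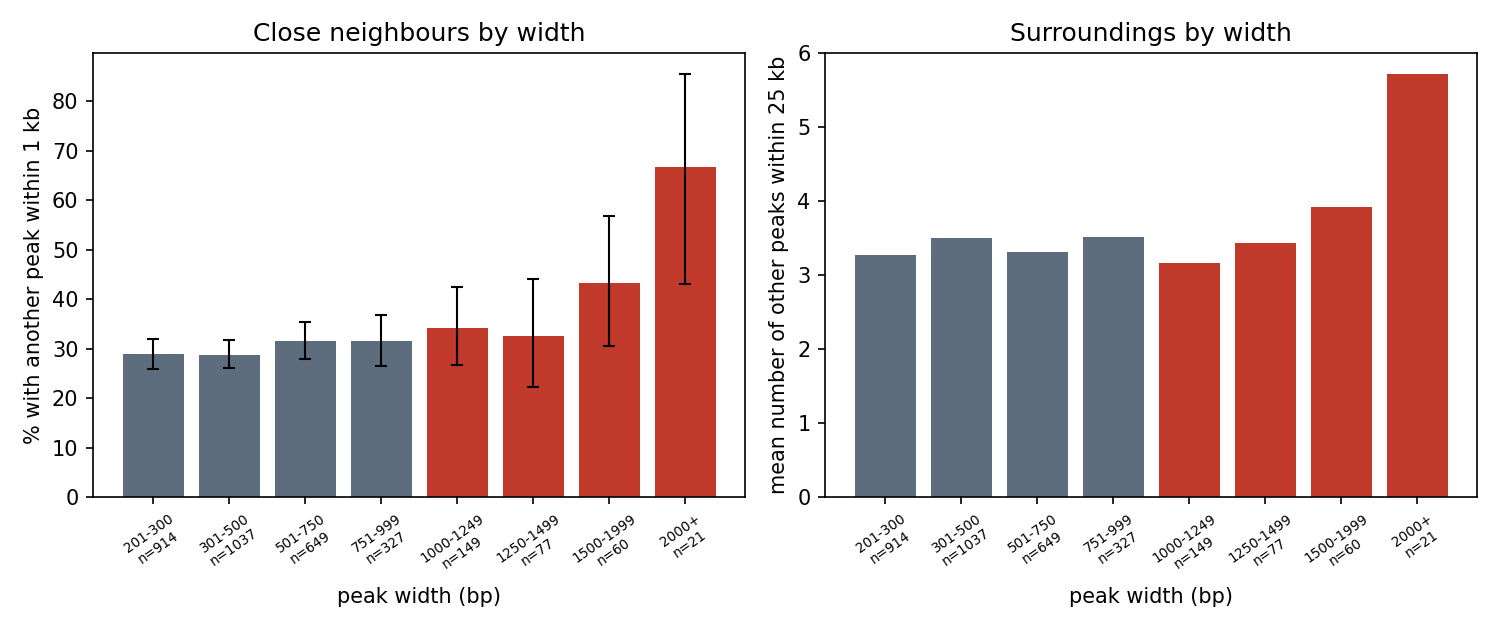
Percentage of peaks with another peak within 1 kb, edge to edge, with exact 95% intervals (left), and mean number of other peaks with a midpoint within 25 kb (right), by class of peak width in bp. Narrower classes are grey and wide ones red, and the class of 2000 bp or more stands highest in both panels, at 66.7% and 5.71.

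The peaks beside wide peaks were close in median width and score to those beside narrower peaks. Of the 116 wide peaks with a neighbour within 1 kb, 99 had it on 1 side and 17 on both. For the 871 narrower peaks with one, these counts were 757 and 114. The 132 peaks that flanked them had a median width of 463.5 bp (quartiles 311 and 751 bp) and a median score of 16.6 (quartiles 11.3 and 31.1). The 879 peaks that flanked narrower peaks in this way had medians of 423 bp and 15.06. The median gap was 366 bp beside wide peaks and 343 bp beside narrower ones, and the smallest gap was 50 bp in both sets. Of the 132 flanking peaks, 12 were themselves wide, as were 106 of the 879 beside narrower peaks and 9.49% of all peaks. The nearest peak scored lower than the peak itself for 96 of the 116 wide peaks (82.8%) and 393 of the 871 narrower ones (45.1%). The higher scores of wide peaks enter this count.

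Joining peaks less than 1 kb apart gave 298 regions with a wide peak, of which 191 (64.1%) held that peak alone. These regions had a median length of 1478 bp (quartiles 1133 and 2235 bp) and at most 5 peaks. The longest, singled out after its length was seen, was on 3R at 12881865 to 12888709, with 5 peaks over 6845 bp, the widest of them 2743 bp and the highest score 124.54. The other 2377 regions held narrower peaks only, with 2056 of them single peaks (86.5%) and a median length of 430 bp. Even so, 246 of these regions of narrower peaks were at least 1000 bp long.

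Chains were defined as runs of peaks with no gap above 5 kb. Of the wide peaks, 124 (40.4%, 34.9 to 46.1%) were alone, 128 (41.7%) were in chains of 2 to 4 peaks, 43 (14.0%) in chains of 5 to 9 and 12 (3.91%) in chains of 10 or more. The shares of narrower peaks were 44.9% (43.1 to 46.7%), 42.2%, 10.5% and 2.46%. Chains of 5 or more held 17.9% of wide peaks (13.8 to 22.7%) and 12.9% of narrower ones (11.7 to 14.2%), with overlapping intervals. The difference was 5.00 percentage points (0.686 to 9.9, combined from both exact intervals). Its interval also stayed above 0 with a limit of 1500 bp, with peaks scored no lower than the median, without chromosome 4 and after merging. It included 0 with a limit of 800 bp and with gaps up to 2 or 10 kb. There were 66 chains of 5 or more peaks, and 36 of them had at least 1 wide peak. Of their 433 peaks, 55 were wide, against 9.49% of all peaks. Of the 6 chains of 10 or more peaks, 5 had at least 1 wide peak, and 12 of their 84 peaks were wide. Of all 2078 chains, single peaks among them, 1801 had 0 wide peaks. A long chain has more peaks that can be wide, and the part of chain size in these counts was not tested.

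Wide peaks followed or neighboured other wide peaks at shares whose intervals included the 9.49% that they made up of all peaks. The nearest peak was itself wide for 36 of 307 wide peaks (11.7%, 8.35 to 15.9%) and for 288 of 2927 narrower ones (9.84%, 8.78 to 11.0%). The next peak along the arm was wide after 39 of 306 wide peaks (12.7%, 9.22 to 17.0%) and after 267 of 2923 narrower ones (9.13%, 8.11 to 10.2%). Both pairs of intervals overlapped. Between one wide peak and the next, the median gap was 176966 bp (141220 to 235034 bp) over 302 gaps, of which 24 were within 5 kb and 78 within 50 kb. It was 81649 bp on X, 202599 bp on 3R, 246717 bp on 3L and 267239 bp on 2L. The smallest gap between wide peaks was 130 bp, on X. In all, 54 wide peaks (17.6%, 13.5 to 22.3%) shared a chain with another wide peak, in 24 chains.

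The chains with the most wide peaks were of 2 kinds, long runs with scattered wide peaks and short runs made mostly of them. The 3R chain at 12050187 to 12081083 had 4 wide peaks among 15, of 2765, 1039, 1313 and 1505 bp with scores of 36.08, 36.15, 28.86 and 32.52. Its highest score, 61.95, was that of a peak of 906 bp. The 2L chain at 12003140 to 12013872 had 4 wide peaks among 6, of 1964, 1157, 1275 and 1286 bp with scores of 56.70, 27.95, 29.70 and 51.77. Peaks covered 63.9% of its 10.7 kb and 37.4% of the 30.9 kb of the 3R chain. On X, the chain at 1454968 to 1490464 had 3 wide peaks among 18, of 1682, 1485 and 1211 bp with scores of 44.33, 51.77 and 75.69. Those 3 were its strongest peaks, and the chain's median score was 12.3.

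The 2L chain at 2193446 to 2203601 had 3 wide peaks among 5, of 1899, 1007 and 1621 bp with scores of 82.25, 28.19 and 75.89, and peaks covered 57.1% of its 10.2 kb. The X chain at 1497945 to 1521346 had 2 wide peaks among 15. They were the widest peak on these arms, 3726 bp with 61.79, and one of 1381 bp with the chain's highest score, 72.27. Another 19 chains also had 2 wide peaks, and this one was named for its number of peaks. Scores of the wide peaks in these 5 chains stayed at or below 82.25, under the 88.8 that marks the upper quartile of all wide peaks.

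**Figure D5:**
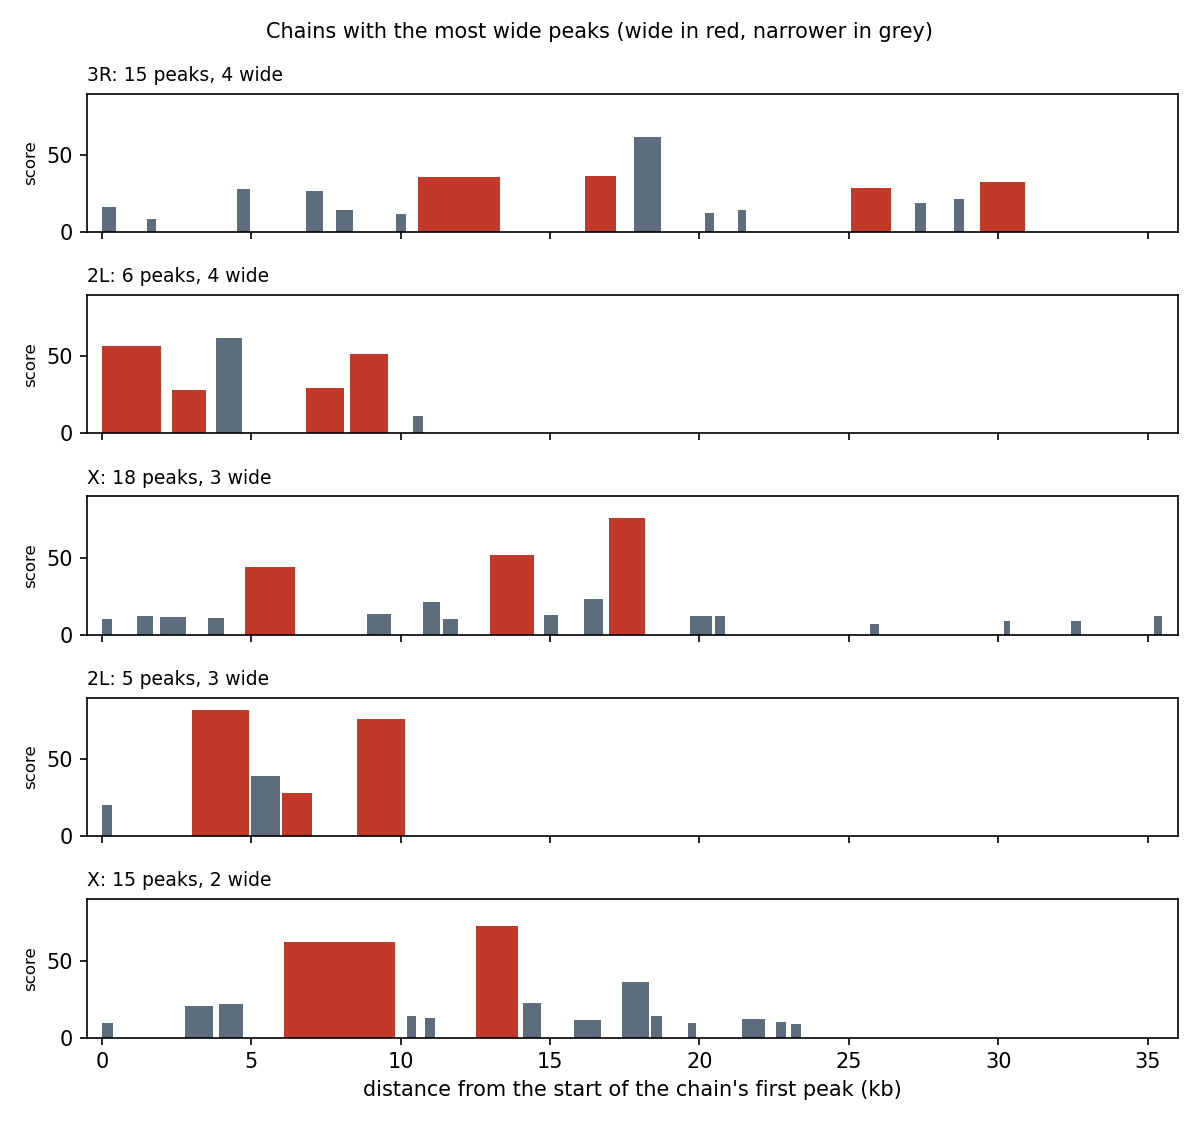
Peaks of the 5 chains with the most wide peaks, drawn to scale by distance in kb from the start of each chain's first peak, with height as the deposited score. Wide peaks are red and narrower ones grey, and no score exceeds 82.25.

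Other wide peaks stood far from any other peak. The most isolated was on 3R at 1833158 to 1834262, 1105 bp wide with a score of 63.74 and 104224 bp from its neighbour. It was followed on 2L by a peak at 22960989 to 22962112, 86826 bp away with a score of 31.65, which was the last peak of its arm. On 3R, the peak at 3634514 to 3635520 was 75708 bp away with a score of only 17.29, and the one at 4573254 to 4574585 was 70958 bp away with a score of 72.17. Next came a peak on 2L at 21828127 to 21829136, 70066 bp away with a score of 43.51. These 5 were 1007 to 1332 bp wide, and 3 of the 5 scored below the median of wide peaks. Neither sets them apart, since most wide peaks lie below the upper quartile of 1533 bp and a median divides the scores evenly.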

How the data were processed

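The data were 1 peak list of the whole series in GFF3 format, on FlyBase release 5 per the file headers, with MACS in its source column. CASAVA 1.7.0.2 and 1.7.0.3, BWA, MACS2 and the build BDGP5 are named per the submitters' processing notes, but neither a threshold nor a filter nor the use of the 2 ChIP and 2 input libraries in the call is given in the sources used here. The score of each peak is the peak caller's value as the authors deposited it, and is used here only to describe and rank peaks within the list. Arms 2L, 3L, 3R, X and 4 were kept, and gaps, chains and neighbours were measured within an arm. Shares have exact Clopper-Pearson and densities exact Poisson 95% intervals, and medians have exact intervals from order statistics. The calculations were checked on simulated data with Python 3.11.15, numpy 2.4.6, pandas 2.3.3, scipy 1.17.1 and matplotlib 3.10.9. The members and lists were chosen with earlier results of these data known. Named are the 10 widest, the 5 strongest, 5 weakest and 5 most isolated wide peaks, the 5 chains with the most wide peaks, and the 3 peaks on each side of the limit. Others named in the text, such as bins of 1 Mb, were picked after their values were seen. The available gene table follows release 6, so peaks were not set beside its coordinates, and the planned gene names, sequences and motifs were not used here.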

Additional observations from a re-analysis of the deposited data

How the results depend on the processing

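The shares per arm, scores, distances, neighbours and chains were recomputed with wide peaks starting at 800 or 1500 bp, with a stricter list of peaks scored no lower than the median, without chromosome 4, and, for distances and grouping, with midpoints, peaks merged below 1 kb, other window or chain sizes, and within 5 classes of score (class 1 lowest). The wide share of X was 22.8%, 4.02% and 24.7% with 800 bp, 1500 bp and the stricter list, and it exceeded the share of 2L, 3L and 3R together under each. Its interval overlapped that of 3R under all 3, and that of 2L with 1500 bp and the stricter list. Densities, covered length, score cuts, neighbours within 5 and 20 kb, flanking peaks and correlations were not recomputed. The median score of wide peaks was 49.1 with 800 bp and 64.6 with 1500 bp. Their median gap to the nearest peak was 1004 bp with 1500 bp, 9668 bp in the stricter list, and 455 and 1257.5 bp in score classes 2 and 3. These classes had 1 and 16 wide peaks. After merging, each joined region of 1000 bp or more counted as wide, among them 246 regions that held narrower peaks only. The median gap of all regions counted as wide was 6071 bp. Class 1 had 0 wide peaks and gave no value. The median gap was below that of narrower peaks, or of shorter regions after merging, in all of these. The interval of the difference, combined from those of both medians, often included 0. It did so with the main settings, 800 bp, the stricter list, midpoints, class 4 and without chromosome 4. It stayed below 0 with 1500 bp, after merging and in classes 3 and 5, and class 2 gave no interval. The median number of peaks within 25 kb was 1 in the stricter list and 1 in score class 2, and within 10 kb it was 1. The share of wide peaks alone in a chain was 34.6% with 1500 bp and 56.9% in the stricter list. It was 52.4% with gaps up to 2 kb and 28.7% with gaps up to 10 kb. After merging, 55.3% of the regions counted as wide were alone. The nearest peak was wide for 21.0%, 2.47% and 22.7% with 800 bp, 1500 bp and the stricter list. The median gap between wide peaks was 87668 bp with 800 bp and 595712 bp with 1500 bp, and the most in any bin of 1 Mb was 26 and 6, by construction of more or fewer members. Some differences between wide and narrower peaks changed sign: with 800 bp wide peaks were alone more often, by 0.339 percentage points, and with 1500 bp their nearest peak was wide less often, by -0.576 points. The mean number of peaks within 25 kb was lower for wide peaks in score classes 2 and 3, by -2.69 and -0.0497. In class 4 it was higher by 0.416 (-0.364 to 1.20, from standard errors over peaks). It was also higher in class 5, by 0.667 (0.134 to 1.20), and with 1500 bp, by 1.00 (0.186 to 1.82). With the main settings the difference was 0.159 (-0.234 to 0.552). The cause was not tested. The bins of 1 Mb under other limits, and X without its richest bins, were added once the data had been seen. No paired analysis was possible because there are no values per library, which also means that leaving out a replicate could not be tried. With the library depths unknown, how far depth limits the weakest and narrowest calls was not tested.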

Other observations

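Outside the chromosome arms, on scaffolds and the mitochondrial genome, 3 of 239 peaks were 1000 bp or wider (1.26%, exact 95% interval 0.260 to 3.62%), against 9.49% on arms 2L, 3L, 3R, X and 4. They were 1 of 187 peaks on the unplaced scaffolds, 2 of 50 on heterochromatic scaffolds and 0 of 2 on the mitochondrial genome. Their scores ran from 58.06 to 148.69, and the widest was 2097 bp.

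Within 2L, 3L, 3R and X, the span between the first and last peak was divided into 10 equal stretches, numbered from the first peak. The share of wide peaks was highest in stretch 9 of X, where 20 of 72 peaks were wide (27.8%, 17.9 to 39.6%), and lowest in stretch 6 of 3L, with 1 of 60 (1.67%, 0.0422 to 8.94%). On 3R stretch 4 was the richest, with 17 of 111 (15.3%, 9.18 to 23.4%).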
